A study of Mus musculus with 9 samples.

Results

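Conjugation enzymes attach glutathione, glucuronate or sulfate to drugs, hormones, bile pigments and the reactive products of lipid damage. The conjugates dissolve in water and leave the hepatocyte into bile or blood. Members were the rows of the deposited rat liver table whose symbols begin with Gst and a class letter, Mgst, Ugt or Sult, followed by a digit. This gave 58 of 37203 rows, which comprised 25 glutathione transferases, 20 UDP-glucuronosyltransferases and 13 sulfotransferases, 2 of the Ugt1a rows being labelled as pseudogenes. Of the 58 rows, 5 had no count in any library (Gstt4, Sult1d1, Sult6b1, Ugt3a2 and Ugt8), 7 had too few counts to be tested, and 46 were tested. A row that is high in only 1 group, such as Sult4a1, enters the tested rows through that group.

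RNA came from livers of Wistar rats in 3 groups of 3 libraries; the organism label reads Mus musculus, while the strain and the gene symbols are those of rat. Normal rats were given only the vehicle, olive oil. Fibrosis was induced over 8 weeks with CCl4 (carbon tetrachloride, which injures hepatocytes), dosed 3 times weekly at 2 mL/kg as a 50% solution in that oil. In the schisandrin B group, 4 weeks of CCl4 alone preceded 4 weeks in which daily schisandrin B, a lignan of Schisandra fruit, was added to it. The study used 25 and 50 mg/kg of the compound, and the labels do not say which dose these libraries had, so they are treated here as 1 group. The labels describe male animals and do not tell whether each library is a separate rat, so an SD or p-value measures only the spread between these libraries.

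Library totals ran from 10320299 to 16255167 counts, and levels are given as CPM, the count scaled to library size, after TMM scaling. Albumin and 7 further hepatocyte markers summed to 226235 to 262797 CPM in normal libraries. The sums were 69916 to 113448 CPM in fibrosis and 189152 to 208926 CPM in schisandrin B libraries. Albumin alone had means of 171811 CPM in normal and 50909 CPM in fibrosis libraries. In fibrosis against normal 4 of the 8 markers fell and 0 rose, where 22.9% of all genes fell and 25.4% rose. Alb, Apoa1, Ttr and Tf fell, while Apob, Fgb, Serpina1 and Hnf4a were not called. Means of Fgb and Serpina1 were higher in fibrosis, at 6267 and 14555 CPM against 5287 and 10858 CPM in normal. In bulk tissue fewer hepatocytes and less RNA per hepatocyte cannot be told apart in the fall of these markers. Members fell by unlike amounts or rose, and the parts of cell number and of RNA per cell in their changes were not tested. The Y-linked genes Kdm5d and Eif2s3y had 0 counts in all 3 normal libraries and means of 8.02 and 10.4 CPM in fibrosis and 12.3 and 11.8 CPM in schisandrin B libraries. The third Y-linked gene tested, Ddx3y, did not separate the groups (edgeR adjusted p 0.74 for fibrosis against normal). It was low in all 3, with means of 1.48 CPM in normal, 1.23 in fibrosis and 0.86 in schisandrin B libraries. Its counts were 12, 12 and 32 in normal, 12, 16 and 26 in fibrosis and 16, 7 and 6 in schisandrin B libraries. Whether the normal rats differed in sex from the others was not tested beyond these 3 genes, and such a difference cannot be told apart from treatment in comparisons with the normal group. Schisandrin B against fibrosis sets 2 groups with Kdm5d and Eif2s3y counts against each other. Fibrosis replicate 1 lay farther from the other libraries of its group than any other library did. Genes were called at an edgeR quasi-likelihood adjusted p under 0.05 over all 14581 genes tested, and "rose" and "fell" are used only for called genes. Changes are log2 fold changes ± SE, and levels are compared between groups and not between genes, since transcript lengths were not used here.

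Across the 3 families the usual pattern was a fall in fibrosis against normal and a rise in schisandrin B against fibrosis, with the mu class glutathione transferases as the main exception. In fibrosis against normal 32 of 46 tested members fell and 4 rose, where 22.9% of all genes fell, 25.4% rose and 48.3% did either. Their median change was -1.14 on the log2 scale, against 0.03 over all genes tested. In schisandrin B against fibrosis 32 rose and 4 fell, where 22.5% of all genes rose, 24.8% fell and 47.3% did either, and the median change was 1.22 against -0.03. These 2 comparisons share the fibrosis libraries, and each shares a group with schisandrin B against normal. In schisandrin B against normal 5 rose and 8 fell, where 5.25% of all genes rose, 5.25% fell and 10.5% did either, and the median was 0.09 against 0.00. The first 2 comparisons stayed within 1.5 times these counts in every alternative run, including the omission of fibrosis replicate 1, without which 33 fell and 5 rose against normal and 32 rose and 4 fell with schisandrin B. With library totals 24 fell and 6 rose against normal, and 29 rose and 5 fell with schisandrin B. The shares of all genes given here also apply to the family and class counts below.

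Because close paralogs can share reads, the summed CPM of each subfamily was also read per library. Except for Ugt1a, described further on, it depends less on how reads were divided within the subfamily. The alpha class glutathione transferases (Gsta) summed to 1929, 1730.2 and 1659.9 CPM in normal, 729, 733 and 685 in fibrosis and 1244, 1920.2 and 1285 in schisandrin B libraries. The mu class (Gstm) went the other way, with 862, 1404 and 1199 CPM in normal, 3114, 2532 and 2498 in fibrosis and 1189, 1667 and 1230.4 in schisandrin B libraries. In both classes the fibrosis libraries lay outside the range of the other 6 libraries, below it for alpha and above it for mu. The Ugt2b rows summed to 1194, 1086 and 877 CPM in normal, 287, 418 and 256 in fibrosis and 887, 1445 and 1259 in schisandrin B libraries. The Sult1 rows summed to 393, 398 and 436 CPM in normal, 102, 242 and 199 in fibrosis and 558, 731 and 859 in schisandrin B libraries, so that the schisandrin B libraries lay above both other groups. The Ugt1a rows summed to 375 to 539.8 CPM in normal, 293 to 399 in fibrosis and 639 to 971 in schisandrin B libraries, again highest with schisandrin B, in a sum that counts shared reads more than once. The widest range belonged to the Sult2 rows, at 4723, 3335 and 3443 CPM in normal, 57.1, 37.9 and 17.6 in fibrosis and 557, 642 and 478 in schisandrin B libraries. Here the 3 groups did not overlap at all. All 58 rows together took 1.00% to 1.20% of the counts in normal, 0.639% to 0.705% in fibrosis and 0.834% to 1.02% in schisandrin B libraries.

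**Figure D1:**
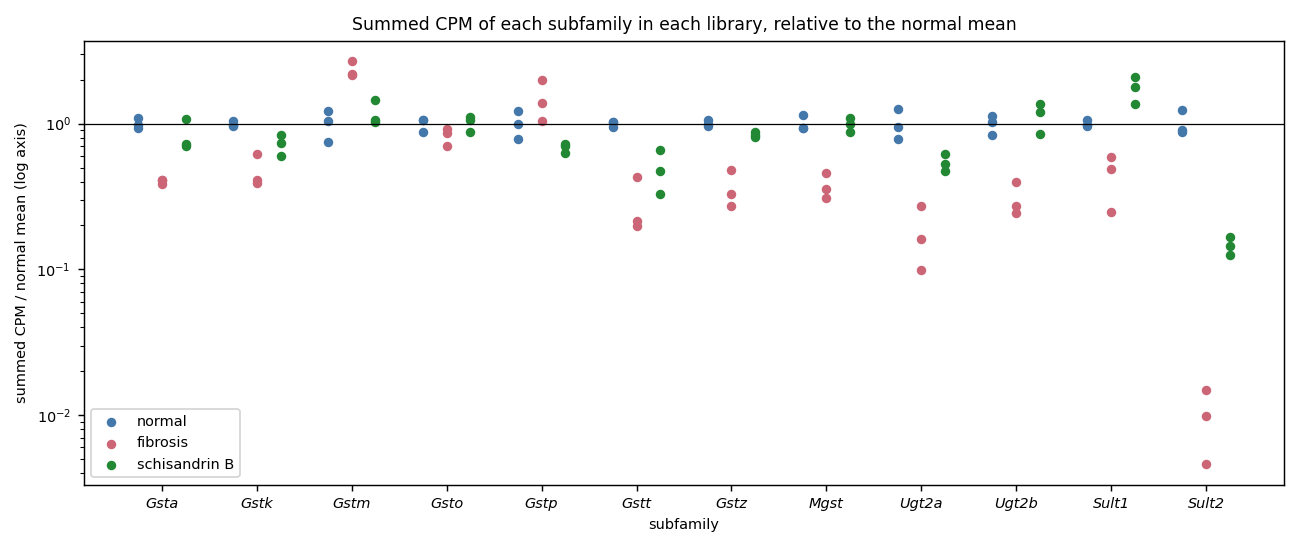
Summed CPM of 12 subfamilies in each library, divided by the mean of the normal group, on a log axis. Points are libraries and colours are groups, and the horizontal line is the normal mean. Fibrosis libraries lie below the other groups for Gsta, Gstz, Mgst, Ugt2a, Ugt2b, Sult1 and Sult2, and above them for Gstm.

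Cytosolic glutathione transferases of the alpha class are abundant hepatocyte enzymes that detoxify electrophiles and lipid peroxides. All 5 fell in fibrosis against normal, and only 3 of the 5 rose in schisandrin B against fibrosis. Gsta2 stood at 747, 704 and 491 CPM in normal, 202, 246 and 284 in fibrosis and 538, 926 and 741 in schisandrin B libraries. It fell by 1.41 ± 0.26 against normal (edgeR adjusted p 0.000914) and rose by 1.59 ± 0.26 with schisandrin B (0.00046). Gsta4, which conjugates hydroxynonenal from lipid peroxidation, had 72.9, 65.6 and 78.9 CPM in normal, 17.3, 20.1 and 19.1 in fibrosis and 36.9, 52.3 and 46.9 in schisandrin B libraries. It fell by 1.94 ± 0.18 and then rose by 1.27 ± 0.18 in these comparisons. Gsta5 fell by 1.02 ± 0.30 and rose by 1.16 ± 0.31.

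Gsta1 and Gsta3 did not share that rise. Gsta1 had 624, 614 and 619.7 CPM in normal, 224, 322 and 197 in fibrosis and 235, 386 and 175 in schisandrin B libraries. It fell by 1.32 ± 0.29 in fibrosis, and its difference between schisandrin B and fibrosis was 0.10 ± 0.28 (edgeR adjusted p 0.795). Gsta3 had 36.9, 46.7 and 52 CPM in normal, 7.03, 10.6 and 22.9 in fibrosis and 3.82, 8.3 and 14.2 in schisandrin B libraries. The CCl4 groups overlapped for both genes, and both lay below every normal library. Schisandrin B libraries differed from normal by -1.22 ± 0.29 for Gsta1 (edgeR adjusted p 0.021) and by -2.36 ± 0.50 for Gsta3 (0.0164). The Gsta1 call was lost without any of the 3 normal libraries (adjusted p 0.056 to 0.0669) and without schisandrin B replicate 1 (0.0888) or 3 (0.0885). The Gsta3 fall in fibrosis was lost without fibrosis replicate 1 (0.0575) or 2 (0.0576), with library totals (0.0659) and with no filter (0.0708). Its fall in schisandrin B against normal was lost without normal replicate 3 (0.0523) or schisandrin B replicate 2 (0.0652), and with no filter (0.0715). Within the alpha class Gsta1 made up 32.3% to 37.3% of counts in normal and 13.6% to 20.1% in schisandrin B libraries, and Gsta2 29.6% to 40.7% and 43.2% to 57.6%. Reads of these close paralogs can be shared, so single values within the class are uncertain.

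The mu class divided. Of 8 rows 5 were tested, and 3 rose and 1 fell in fibrosis against normal. Gstm1 had 457, 817 and 588 CPM in normal, 2489, 1754 and 1664 in fibrosis and 716, 914 and 682 in schisandrin B libraries. It rose by 1.67 ± 0.27 (edgeR adjusted p 0.000385) and fell by 1.35 ± 0.26 with schisandrin B (0.00149). Gstm3 had 1.89, 1.42 and 0.566 CPM in normal, 68.2, 48.5 and 82.3 in fibrosis and 10.4, 9.32 and 6.84 in schisandrin B libraries, so no 2 groups overlapped. It fell by 2.90 ± 0.31 in schisandrin B against fibrosis (edgeR adjusted p 3.32e-05), and schisandrin B libraries remained 2.77 ± 0.36 above normal (0.000731). Gstm4 rose by 0.49 ± 0.17 in fibrosis (edgeR adjusted p 0.0278). That call was lost with upper-quartile factors (0.0718), with only the groups compared (0.0586), and without normal replicate 1 (0.078) or 2 (0.0904), fibrosis replicate 2 (0.0982) or schisandrin B replicate 1 (0.0537).

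Gstm7 and Gstm2 differed from these. Gstm7 had 44.5, 56.7 and 74 CPM in normal, 23.4, 27.5 and 15.6 in fibrosis and 71.9, 60.1 and 67.9 in schisandrin B libraries. It fell by 1.40 ± 0.24 (edgeR adjusted p 0.000619) and rose by 1.59 ± 0.24 with schisandrin B (0.000304), the reverse of Gstm1. Gstm2 was not called in any comparison and ranged from 319 to 676 CPM over the 9 libraries. In shares of mu class counts, Gstm1 took 49.1% to 58.2% in normal and 66.6% to 79.9% in fibrosis libraries, not scaled by length, while Gstm7 had 4.04% to 6.17% in normal and 0.625% to 1.09% in fibrosis libraries. Gstm5, Gstm6 and Gstm6l had at most 14 counts in a library and were not tested.

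**Figure D2:**
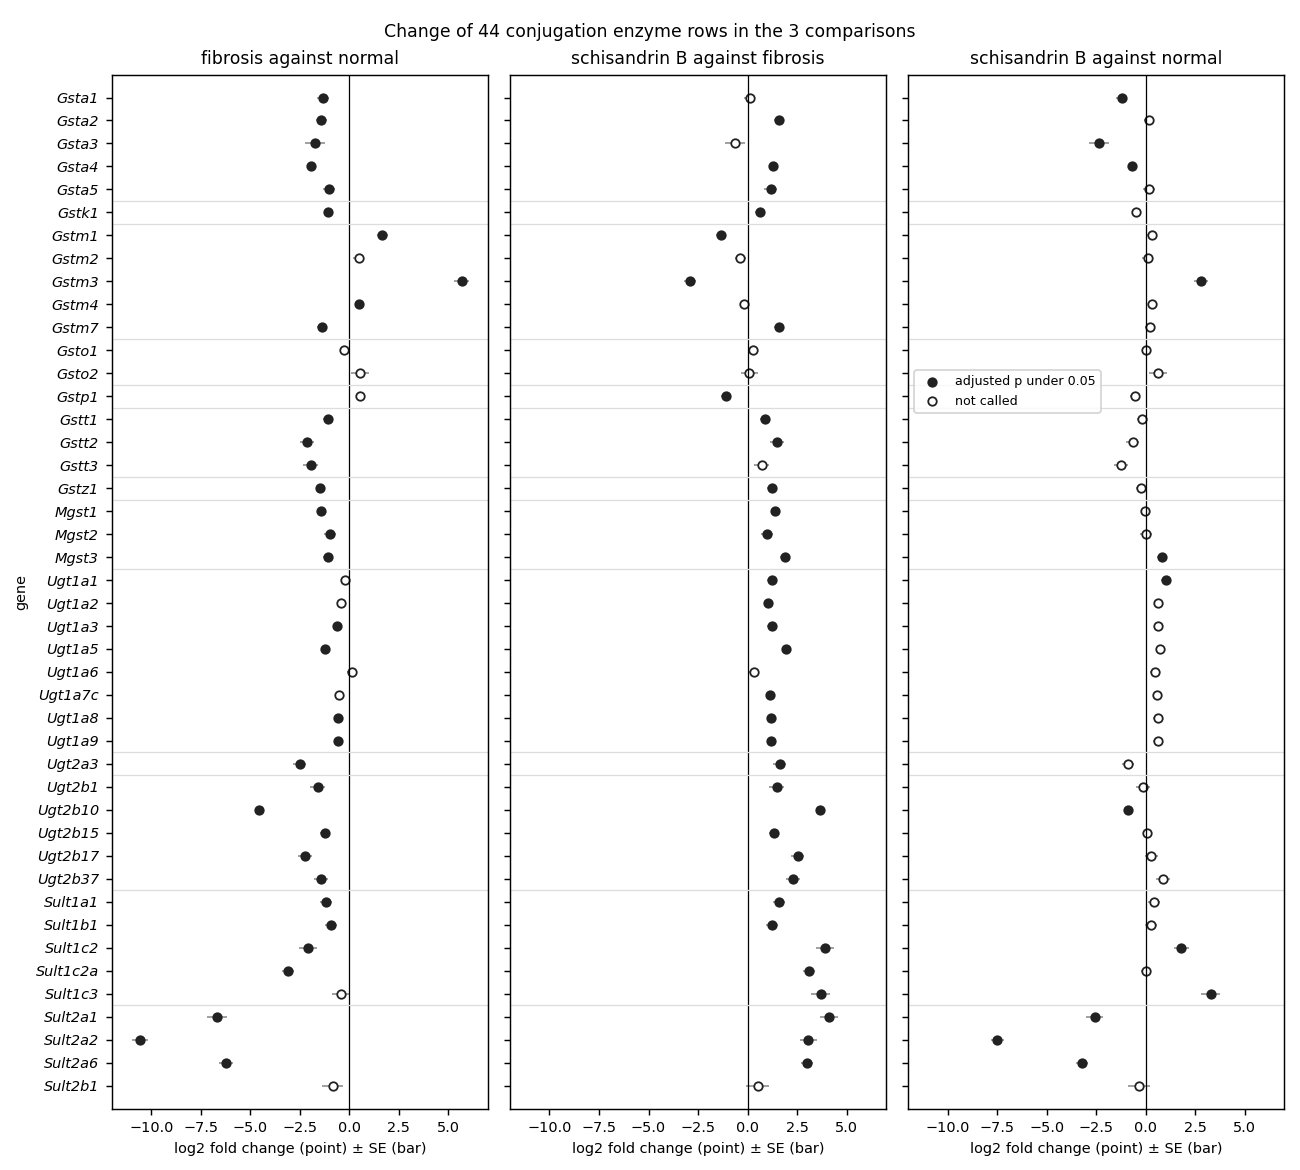
Log2 fold change (points) with SE (bars) of 44 members in fibrosis against normal, schisandrin B against fibrosis and schisandrin B against normal, ordered by subfamily. Filled points had an edgeR adjusted p under 0.05 and open points did not. Sult4a1 and Ugt1a4-ps are left out because groups with 0 to 3 counts give no usable fold. In the left panel Gstm1, Gstm3 and Gstm4 are the filled points to the right of 0, and Sult2a1, Sult2a2 and Sult2a6 lie farthest to the left.

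Gstp1, the pi class enzyme, is low in adult rat hepatocytes, present in bile duct cells and known as a marker of preneoplastic rat liver foci. It had 22.1, 17.4 and 26.9 CPM in normal, 30.9, 23 and 44.2 in fibrosis and 13.8, 15.7 and 16.1 in schisandrin B libraries. Normal and fibrosis libraries overlapped, and the difference of 0.56 ± 0.24 was not called (edgeR adjusted p 0.0752), except with library totals (0.00764) and without fibrosis replicate 2 (0.0204). In schisandrin B against fibrosis Gstp1 fell by 1.10 ± 0.25 (edgeR adjusted p 0.0034), and all 3 libraries lay below both other groups. Cholangiocyte markers were not uniform. Their summed level was 20.1 to 25 CPM in normal, 52.3 to 64.3 in fibrosis and 13.3 to 29.5 in schisandrin B libraries. Of 6 markers (5 tested) 3 rose in fibrosis, where 25.4% of all genes rose, and 2 fell with schisandrin B, where 24.8% fell. None was at 0 in a whole group. Krt19 and Epcam rose in fibrosis and fell in schisandrin B against fibrosis. Spp1 rose in fibrosis and was not called in schisandrin B against fibrosis. Krt7 and Cftr were called in neither of these comparisons, and Sox9 was not tested. The part of these markers in the Gstp1 difference was not tested.

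The theta, zeta, kappa and omega classes held 4, 1, 1 and 2 rows. Gstt1, Gstt2 and Gstt3, theta enzymes that act on small halogenated compounds, all fell in fibrosis, by 1.07 ± 0.25, 2.14 ± 0.34 and 1.95 ± 0.38. Gstt3 had 333, 388 and 382 CPM in normal, 66.4, 150.1 and 68.1 in fibrosis and 97.3, 134 and 232 in schisandrin B libraries. Its schisandrin B libraries overlapped those of fibrosis, with a difference of 0.70 ± 0.36 (edgeR adjusted p 0.136) that was called without fibrosis replicate 2 (0.0112). Their difference from normal was -1.25 ± 0.37 (0.0537), which was called by DESeq2 (0.00919), limma voom (0.0393) and with only the groups compared (0.0164). It was also called without fibrosis replicate 1 (0.04), 2 (0.0179) or 3 (0.0497) and without schisandrin B replicate 3 (0.0308). Gstt1 and Gstt2 rose by 0.88 ± 0.25 and 1.48 ± 0.34 in schisandrin B against fibrosis.

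Gstz1, which isomerises maleylacetoacetate in tyrosine breakdown, had 477, 493 and 527 CPM in normal, 163, 242 and 137 in fibrosis and 439.6, 402 and 416 in schisandrin B libraries. It fell by 1.47 ± 0.22 and rose by 1.21 ± 0.22. Gstk1, the kappa enzyme of mitochondria and peroxisomes, had 263, 244 and 248 CPM in normal, 156, 103 and 98.4 in fibrosis and 185, 209 and 151 in schisandrin B libraries. It fell by 1.08 ± 0.22 and rose by 0.61 ± 0.21 (edgeR adjusted p 0.0344), although fibrosis and schisandrin B libraries overlapped. The rise was lost with library totals (0.134), with only the groups compared (0.0612), and without fibrosis replicate 2 (0.0998) or 3 (0.107) or schisandrin B replicate 1 (0.0619) or 2 (0.13). Gsto1, an omega enzyme with thioltransferase activity, had 111, 91.4 and 109.6 CPM in normal, 96.3, 88.2 and 72.4 in fibrosis and 90.8, 115 and 108 in schisandrin B libraries. It and Gsto2 were called in no comparison, with Gsto1 adjusted p of 0.208, 0.199 and 0.982 by edgeR.

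All 3 membrane-bound glutathione transferases fell in fibrosis and rose with schisandrin B. Mgst1, an enzyme of the endoplasmic reticulum and outer mitochondrial membrane with peroxidase activity, had 2802, 2265 and 2272 CPM in normal, 749, 1101 and 859.8 in fibrosis and 2137, 2421 and 2615 in schisandrin B libraries. It fell by 1.44 ± 0.22 (edgeR adjusted p 0.000271) and rose by 1.40 ± 0.22 (0.000347), and its difference between schisandrin B and normal was -0.03 ± 0.21 (0.945). Mgst3 had 32, 32.5 and 28 CPM in normal, 11.5, 21.2 and 11.2 in fibrosis and 51.2, 50.2 and 61.6 in schisandrin B libraries. All schisandrin B libraries lay above normal, with a rise of 0.82 ± 0.24 (edgeR adjusted p 0.0482) that was lost without any of the normal or schisandrin B libraries (0.0996 to 0.17). Mgst2 fell by 0.98 ± 0.30 and rose by 0.98 ± 0.30.

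**Figure D3:**
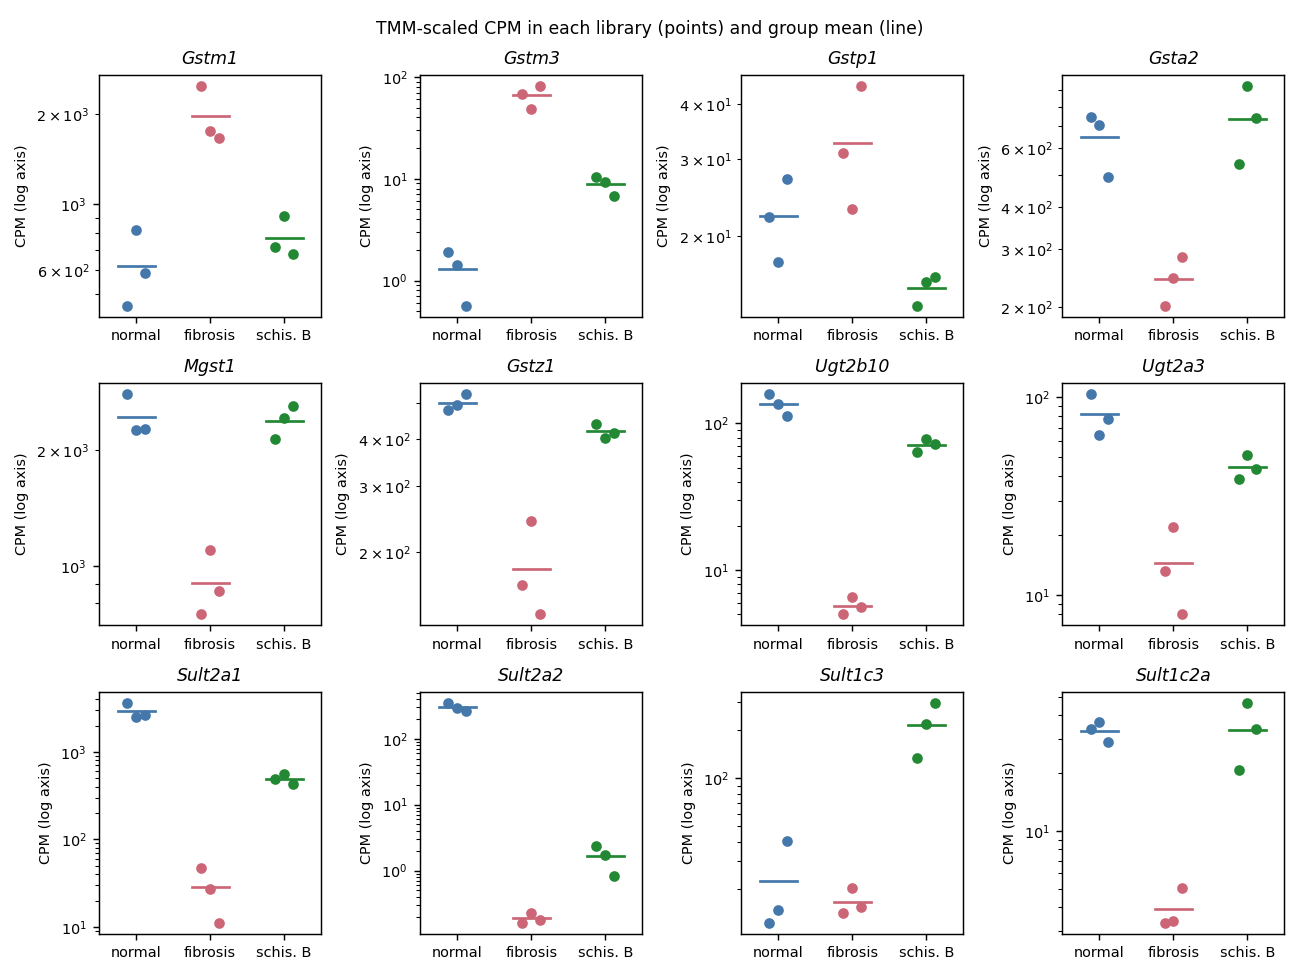
TMM-scaled CPM of 12 members in each library, on log axes that differ between panels. Points are libraries, colours are groups (schis. B is schisandrin B) and lines are group means. Gstm1 and Gstm3 are highest in fibrosis libraries, Sult1c3 is highest in schisandrin B libraries, and Sult2a2 is below 3 CPM in both CCl4 groups.

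UDP-glucuronosyltransferases sit in the endoplasmic reticulum and use UDP-glucuronate. Of 20 rows 15 were tested. In fibrosis against normal 11 fell and 0 rose, where 22.9% of all genes fell and 25.4% rose. In schisandrin B against fibrosis 13 rose and 0 fell, where 22.5% of all genes rose and 24.8% fell. Of these, 5 falls and 7 rises were Ugt1a rows, several of which repeat one another, as described further on. Each of the 5 tested Ugt2b rows, a subfamily that handles steroids and drugs, fell and then rose in these comparisons. Ugt2b10 had 158, 135 and 112 CPM in normal, 5.01, 6.57 and 5.57 in fibrosis and 63.5, 78.8 and 72.3 in schisandrin B libraries. It fell by 4.56 ± 0.21 (edgeR adjusted p 2.05e-07), rose by 3.64 ± 0.20 (1.71e-06), and differed between schisandrin B and normal by -0.92 ± 0.18 (0.00879), with no overlap between groups. Ugt2b15 had 422, 397 and 307 CPM in normal, 161, 183 and 132 in fibrosis and 294, 477 and 417 in schisandrin B libraries, changes of -1.25 ± 0.23 and 1.32 ± 0.23.

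Ugt2b1, which glucuronidates steroids and opioids, had 127, 102 and 120.2 CPM in normal, 46.6, 42.5 and 25.8 in fibrosis and 48.8, 159.8 and 111 in schisandrin B libraries. It fell by 1.61 ± 0.37 and rose by 1.48 ± 0.37 (edgeR adjusted p 0.00762), although schisandrin B replicate 1, at 48.8 CPM, was close to the highest fibrosis library. Ugt2b17 and Ugt2b37 fell by 2.24 ± 0.33 and 1.42 ± 0.34 and rose by 2.53 ± 0.34 and 2.29 ± 0.35. Ugt2a3, an enzyme active on bile acids, had 104, 64.2 and 78.1 CPM in normal, 13.3, 22.1 and 7.97 in fibrosis and 38.7, 50.9 and 43.3 in schisandrin B libraries. It fell by 2.51 ± 0.33 (edgeR adjusted p 0.000128) and rose by 1.62 ± 0.32 (0.00189). Between schisandrin B and normal it differed by -0.89 ± 0.31 without a call (0.0958), a difference called with only the groups compared (0.00798) and without fibrosis replicate 2 (0.0356) or 3 (0.0351).

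The 8 Ugt1a rows without a pseudogene label come from a gene cluster in which each isoform has its own first exon and all share the remaining exons. Their counts were not independent. Ugt1a2, Ugt1a3, Ugt1a7c, Ugt1a8 and Ugt1a9 held nearly the same count in normal and schisandrin B libraries, at most 4.04% and 4.03% above the lowest of the 8 rows. In fibrosis the maximum was 21.7%, for Ugt1a2 in replicate 3, with 454 counts against 373 in the lowest row. Medians were 0.822%, 0.802% and 0.629% above the lowest row in normal, fibrosis and schisandrin B libraries. For normal replicate 1 the lowest of the 8 rows held 365 counts, and Ugt1a8 and Ugt1a9 stood 0 and 3 counts above it. Calls of these 5 rows therefore repeat one another, and they are not evidence for 5 isoforms. Without any Ugt1a row, 27 members fell and 4 rose in fibrosis, and 25 rose and 4 fell in schisandrin B against fibrosis, out of 37 tested.

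Counts above that common level were found mainly in Ugt1a1, Ugt1a5 and Ugt1a6. For Ugt1a1 and Ugt1a5 they separated the groups as the whole rows did, and for Ugt1a6 they set fibrosis apart where the whole row overlapped. The split was chosen after the values had been seen and was not tested. The common level itself was 31.3, 40.5 and 44 CPM in normal, 30.2, 25.4 and 21.9 in fibrosis and 46.8, 56.3 and 72.5 in schisandrin B libraries, with no overlap between groups. For Ugt1a1, the enzyme that conjugates bilirubin, the level above it was 84.1, 104 and 131 CPM in normal, 128, 85.8 and 86.7 in fibrosis and 197, 224 and 290.4 in schisandrin B libraries. The schisandrin B libraries lay above the other 6, and those 6 overlapped. For Ugt1a5 the level above the common one was 30.6, 49.4 and 45.9 CPM in normal, 8.16, 8.99 and 8.27 in fibrosis and 57.4, 74.5 and 90.3 in schisandrin B libraries, again with no overlap.

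Ugt1a6, which conjugates small phenols, went the other way. Its level above the common one was 5.83, 15 and 5.66 CPM in normal, 17.5, 45.9 and 17.3 in fibrosis and 5.82, 7.64 and 6.02 in schisandrin B libraries. The 3 fibrosis libraries lay above the other 6, whereas the whole Ugt1a6 row overlapped between all groups and was called in no comparison (edgeR adjusted p 0.637, 0.338 and 0.272). As whole rows, Ugt1a1 rose by 1.23 ± 0.24 (edgeR adjusted p 0.0013) and Ugt1a5 by 1.95 ± 0.22 (4.73e-05) in schisandrin B against fibrosis. Ugt1a1 also rose by 1.03 ± 0.23 against normal (0.0179), a call lost without normal replicate 1 (0.0768) or 2 (0.0614) or schisandrin B replicate 2 (0.0512) or 3 (0.0859). The pseudogene row Ugt1a4-ps had 75 counts in normal, 2 in fibrosis and 3 in schisandrin B libraries, a ratio of normal to fibrosis of 41.2 with a 95% counting interval of 11 to 347. Ugt1a9-ps had 34, 3 and 4 counts.

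**Figure D4:**
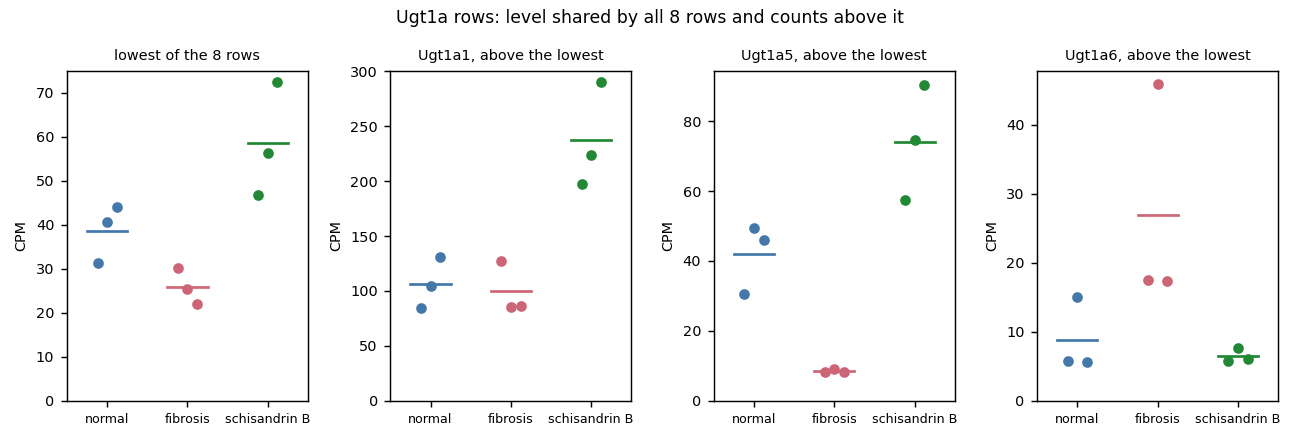
CPM of the lowest of the 8 Ugt1a rows in each library (left panel) and of the counts of Ugt1a1, Ugt1a5 and Ugt1a6 above that level (other panels), on linear axes from 0. Points are libraries, colours are groups and lines are group means. Counts above the common level are highest in schisandrin B libraries for Ugt1a1 and Ugt1a5 and highest in fibrosis libraries for Ugt1a6.

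Cytosolic sulfotransferases held the largest changes. The Sult2a enzymes sulfate bile acids and hydroxysteroids, and in rats they are known to be higher in female than in male liver. Sult2a1 had 3656, 2499 and 2641 CPM in normal, 47.6, 27.1 and 11.1 in fibrosis and 488, 556 and 432 in schisandrin B libraries. Sult2a6 had 713, 543 and 541 CPM in normal, 8.49, 10.3 and 5.34 in fibrosis and 65.5, 83.4 and 44.3 in schisandrin B libraries. Sult2a2 had 353, 291 and 259 CPM in normal, 0.162, 0.227 and 0.176 in fibrosis and 2.39, 1.75 and 0.821 in schisandrin B libraries. All 3 genes had separate ranges in the 3 groups, always with normal highest and fibrosis lowest.

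The change in fibrosis against normal was -6.68 ± 0.52 for Sult2a1, -6.22 ± 0.35 for Sult2a6 and -10.58 ± 0.41 for Sult2a2, the last resting on 8 counts in the fibrosis group. The normal libraries had no Kdm5d or Eif2s3y counts. Ddx3y, the third Y-linked gene tested, was low in all groups, with means of 1.48, 1.23 and 0.86 CPM in normal, fibrosis and schisandrin B libraries. In these falls a possible difference of sex cannot be told apart from CCl4. In schisandrin B against fibrosis, where both groups had counts of all 3 genes, Sult2a1 rose by 4.11 ± 0.46 (edgeR adjusted p 5.40e-05), Sult2a6 by 3.01 ± 0.31 (2.48e-05) and Sult2a2 by 3.07 ± 0.45 (0.000227). The Sult2a2 rise also rests on those 8 counts in the fibrosis group, against 58 in the schisandrin B group. Schisandrin B libraries differed from normal by -2.58 ± 0.43, -3.22 ± 0.30 and -7.50 ± 0.34 for Sult2a1, Sult2a6 and Sult2a2. The 3 paralogs can share reads. Sult2b1, a cholesterol sulfotransferase of other tissues, was at 1.94 CPM or less in each library and was not called.

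Of the 5 tested Sult1 rows, Sult1c2 and Sult1c3 rose in schisandrin B against normal. Sult1a1, the main phenol sulfotransferase of liver, had 258, 246 and 300.1 CPM in normal, 60.3, 163 and 128 in fibrosis and 324, 337 and 404 in schisandrin B libraries. It fell by 1.19 ± 0.30 (edgeR adjusted p 0.00682, and 0.0694 with library totals) and rose by 1.60 ± 0.31 (0.00129). Sult1c3 had 12.4, 14.9 and 40.4 CPM in normal, 14.1, 20.6 and 15.4 in fibrosis and 134, 220.2 and 299 in schisandrin B libraries. Normal and fibrosis overlapped (edgeR adjusted p 0.445), and schisandrin B rose by 3.70 ± 0.48 against fibrosis (0.000205) and by 3.27 ± 0.47 against normal (0.00258).

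Sult1c2 had 3.52, 2.84 and 2.67 CPM in normal, 0.485, 1.21 and 0.41 in fibrosis and 7.44, 15.6 and 8.21 in schisandrin B libraries, with no overlap. It fell by 2.10 ± 0.46 and rose by 3.90 ± 0.45, and the rise of 1.79 ± 0.39 over normal (edgeR adjusted p 0.015) was lost without normal replicate 2 (0.0581) or 3 (0.0678) or schisandrin B replicate 2 (0.0819). Its paralog Sult1c2a had 34.1, 36.9 and 29 CPM in normal, 3.31, 3.4 and 5.04 in fibrosis and 20.8, 46.7 and 33.8 in schisandrin B libraries. It fell by 3.08 ± 0.30 and rose by 3.10 ± 0.30, and its schisandrin B libraries overlapped normal. Sult1b1, which sulfates thyroid hormone and phenols, fell by 0.95 ± 0.30 and rose by 1.22 ± 0.30. The rises over normal share the limit given above on comparisons with that group.

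Sult4a1, a brain sulfotransferase without established liver activity, had 28, 19 and 27 counts in the fibrosis libraries and 0 in the other 6. With the empty groups set to a floor of 3 counts per library, it was at least 7.52-fold higher in fibrosis than in normal and at least 6.79-fold higher than in schisandrin B libraries. Sult5a1, Ugt2a1 and Ugt2b7 had at most 12 counts in a library and were not tested.

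Schisandrin B against normal was the comparison least stable to the choice of libraries. The 5 rises were Sult1c3, Gstm3, Sult1c2, Ugt1a1 and Mgst3, and the 8 falls were Sult2a1, Sult2a2, Sult2a6, Gsta1, Gsta3, Gsta4, Ugt2b10 and Ugt1a4-ps. With library totals 11 rose and 7 fell, so the share of rises among calls went from 38.5% to 61.1%, and with only the groups compared 12 rose and 11 fell. The count of rises was 3, 2 and 3 without normal replicates 1, 2 and 3, 11 without fibrosis replicate 1, and 2 and 3 without schisandrin B replicates 2 and 3. The count of falls was 5 without normal replicate 3. These counts are not set beside the share of all genes called in the same run, so they do not show whether members were less stable than other genes. All libraries of schisandrin B lay above all of normal in 14 of 46 tested members and below in 13, against 19.9% and 18.8% of all genes. Of these 14 members 7 were Ugt1a rows, whose counts were not independent. Without any Ugt1a row, 7 members lay above and 12 below, out of 37 tested.

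Genes that feed conjugation were read from lists. For every list below, the shares of all genes are those given above. In fibrosis against normal 25.4% rose and 22.9% fell, and in schisandrin B against fibrosis 22.5% rose and 24.8% fell. The lists are short, and their counts were not tested against these shares. Of 19 genes of glutathione supply and turnover 17 were tested; 9 rose and 5 fell in fibrosis against normal, and 6 rose and 8 fell in schisandrin B against fibrosis, with medians of 1.12 and -0.98 on the log2 scale. Gclc, the catalytic subunit of the rate-limiting enzyme of glutathione synthesis, rose by 2.86 ± 0.30 and then fell by 2.15 ± 0.29. Ggct, which releases oxoproline from gamma-glutamyl amino acids, rose by 3.54 ± 0.34 and fell by 3.35 ± 0.34, and Slc3a2, the heavy chain of the cystine transporter, rose by 2.84 ± 0.18 and fell by 2.51 ± 0.18. Slc7a11, its light chain, had a mean of 30.2 CPM in fibrosis and 0 counts in the other 6 libraries. The list was not uniform. Cth, which makes cysteine, fell by 3.55 ± 0.33 and rose by 2.64 ± 0.32, and Anpep, Lap3, Cbs and Chac2 also fell in fibrosis and rose in schisandrin B against fibrosis; these 5 genes were picked after their values had been seen.

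Of 12 genes that supply glucuronate and sulfate donors 2 rose and 4 fell in fibrosis, and 4 rose and 3 fell with schisandrin B. Ugdh, which makes UDP-glucuronate, rose by 1.85 ± 0.18 and fell by 2.35 ± 0.19 (edgeR adjusted p 6.87e-06), the opposite of every called Ugt row. Papss2, which makes the sulfate donor, fell by 0.44 ± 0.16 in fibrosis (edgeR adjusted p 0.0424) and fell by a further 0.68 ± 0.16 in schisandrin B against fibrosis (0.00524), while the Sult1 and Sult2a rows rose. Suox, sulfite oxidase, fell by 2.71 ± 0.38 and rose by 2.40 ± 0.38, and the donor transporter Slc35b2 fell by 0.47 ± 0.18 and rose by 0.98 ± 0.18.

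Of 9 export pumps 2 rose and 2 fell in fibrosis, where 25.4% of all genes rose and 22.9% fell. With schisandrin B 3 pumps rose and 3 fell, where 22.5% of all genes rose and 24.8% fell. Abcc2, the canalicular pump for glutathione and glucuronide conjugates, differed by -0.18 ± 0.29 in fibrosis (edgeR adjusted p 0.631) and fell by 0.95 ± 0.29 in schisandrin B against fibrosis (0.0188). Abcb1a and Abcb1b, multidrug pumps with close sequences, rose by 2.47 ± 0.19 and 5.23 ± 0.58 and fell by 2.69 ± 0.20 and 3.58 ± 0.53. Abcc6 fell by 1.40 ± 0.30 and rose by 1.86 ± 0.30. Of 4 hydrolases of glucuronides or sulfate esters, 1 rose and 2 fell in fibrosis and 2 rose and 1 fell with schisandrin B. Among them Gusb, beta-glucuronidase, fell by 1.99 ± 0.16 and rose by 1.44 ± 0.15, Arsa fell by 1.25 ± 0.24 and rose by 1.15 ± 0.24, and Arsb rose by 1.05 ± 0.20 and fell by 0.68 ± 0.20.

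Of 18 regulators 5 rose and 8 fell in fibrosis, and 6 rose and 6 fell with schisandrin B. Nfe2l2, which encodes the Nrf2 activator of many Gst genes, was not called in any comparison (edgeR adjusted p 0.741, 0.581 and 0.895), and its repressor Keap1 fell by 0.64 ± 0.18 in schisandrin B against fibrosis. Nr1i3, which encodes the drug receptor CAR, had means of 7.61 CPM in normal, 4.3 in fibrosis and 75.5 in schisandrin B libraries, a rise of 4.15 ± 0.60 over fibrosis (edgeR adjusted p 0.000435) and of 3.32 ± 0.58 over normal (0.00687). Nr1i2, the receptor PXR, fell by 1.19 ± 0.25 and rose by 1.65 ± 0.25. Ahr fell by 1.45 ± 0.20 and rose by 1.49 ± 0.20, Rxra fell by 1.41 ± 0.17 and rose by 1.58 ± 0.17, and the small Maf gene Mafk rose by 2.97 ± 0.38 and fell by 2.74 ± 0.38. Of 10 other transferases outside the member rule 3 rose and 5 fell in fibrosis and 6 rose and 2 fell with schisandrin B. Baat and Glyat, which join amino acids to bile acids and acyl groups, fell by 2.64 ± 0.28 and 2.07 ± 0.19 and rose by 3.24 ± 0.29 and 2.15 ± 0.19, and the methyltransferase gene Tpmt fell by 1.30 ± 0.24 and rose by 1.33 ± 0.24.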

How the data were processed

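The authors deposited unnormalized whole-number read counts for 37203 gene rows in 9 Ion Proton libraries of rat liver. No aligner or counting tool is named in the sources used here. Per the submitters' processing notes the build is GRCm38, a mouse build, and the organism label is also mouse, while 1317 symbols begin with RGD and 54 with RT1, as in rat, so symbols are used without positions or sequences. Members and lists were chosen with earlier results of these data known. Groups follow the source names in the labels, and replicate numbers follow accession order and pair nothing. Counts were analysed with edgeR 4.0.16 in R 4.3.3: filterByExpr left 14581 genes, scaled by TMM. A robust quasi-likelihood model was fitted to all 9 libraries, with Benjamini-Hochberg adjustment over all genes. Named members were, per comparison, up to 6 rises and 6 falls with the largest change, no overlap between groups and at least 5 CPM, the row of each subfamily with the highest mean in normal, and a fixed set; other members are described by group. The floor of 3 counts is 0.176 to 0.286 CPM per library, and floors and counting intervals cover counting error only. Alternatives were RLE, upper-quartile and total scaling, 2 other filters, DESeq2 1.42.0, limma 3.58.1 voom, fits on the compared groups and omission of each library.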

Additional observations from a re-analysis of the deposited data

How the results depend on the processing

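Of the counts of called members, those in fibrosis against normal and in schisandrin B against fibrosis stayed within 1.5 times the reported value in all 17 alternatives. Without single libraries they ran from 27 to 33 falls and 3 to 5 rises in the first, and from 30 to 32 rises and 4 falls in the second. With library totals they were 24 falls and 6 rises in the first, and 29 rises and 5 falls in the second. TMM factors ran from 0.840 to 0.910 in normal and from 1.06 to 1.33 in fibrosis libraries, so the choice of scaling bears on group comparisons. In schisandrin B against normal, rises went from 5 to 11 with library totals and to 12 with only the groups compared. Without single libraries rises ran from 2 to 11 and falls from 5 to 10. The cause was not tested, and the share of all genes called in each run is not set beside these counts. Scaling by library totals shifted the median of all genes by 0.43, -0.27 and 0.16 on the log2 scale in the 3 comparisons and upper-quartile factors by -0.11, 0.13 and 0.02. No named member with a call changed sign. No paired analysis was possible because the labels give no replicate numbers. With 1 library left out of a group of 3, the fit pools the spread over groups. Rows with few counts, Sult4a1 and the pseudogenes among them, are limited by depth.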

Other observations

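The sulfotransferase ste2, which the member rule does not take in, had 0 counts in all 3 normal libraries, a mean of 54.7 ± 38.1 CPM (SD, n = 3) in fibrosis and 1049 ± 191 CPM in schisandrin B libraries. It rose by 4.26 ± 0.64 on the log2 scale in schisandrin B against fibrosis with an edgeR adjusted p of 0.00107. The 3 normal libraries also had no Kdm5d or Eif2s3y counts, while Ddx3y was low in all groups. A possible difference of sex therefore cannot be told apart from treatment when ste2 is compared with the normal group. Both ste2 and Nnmt were singled out after their values had been seen. Nnmt, which methylates nicotinamide, rose by 1.57 ± 0.27 in fibrosis and fell by 0.97 ± 0.26 in schisandrin B against fibrosis.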
